A study of Mus musculus with 4 samples.

Results

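*Tnni3*-rich non-cycling Sertoli cells of the mouse testis at postnatal day (P) 8 were chosen by their own transcript counts in droplet single-cell RNA sequencing, where a UMI (unique molecular identifier) stands for 1 captured RNA molecule. A barcode counted as a non-cycling Sertoli cell when it passed 6 limits. It held at least 8000 UMIs, with at most 20% from mitochondrial genes. At least 0.3% of its UMIs came from the Sertoli genes *Cst12*, *Cst9*, *Rhox8*, *Amh* and *Aard*, and under 0.3% from the stromal genes *Col1a1*, *Col1a2*, *Col3a1* and *Dcn*. It had fewer than 10 UMIs of the germ cell genes *Ddx4* and *Dazl* and fewer than 3 of the proliferation genes *Mki67* and *Top2a*. The 6294 such cells of both libraries were ranked together by a score, the share of a cell's UMIs from *Tnni3*, *Tesc*, *Defb36*, *Tmem114* and *Cidea*, and the top 25% were the *Tnni3*-rich cells. They numbered 1574 of 6294 non-cycling Sertoli cells, 7228 Sertoli cells and 17432 barcodes past the UMI and mitochondrial limits. The other 4720 non-cycling Sertoli cells served for comparison.

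The mice of the conditional knockout, *Cnot3*-cKO, carried *Cnot3* flox/flox and *Ddx4*-creER, a Cre recombinase that is made in germ cells and needs 4-hydroxytamoxifen (4OHT). Controls were *Cnot3* flox/flox littermates without Cre, which the labels call wild-type, and both groups received 4OHT. The study's methods place the injections on P1 to P3, while the labels give the last day as P1 and P2 for the control samples and P3 and P4 for the *Cnot3*-cKO samples. Because Cre was driven by a germ cell promoter, the floxed *Cnot3* of Sertoli cells was intact by design in both groups. Cells had been sorted by flow cytometry as CD9+/THY1+ to enrich germ cells, and how many mice were pooled is not given in the sources used here. Each genotype had 2 labelled samples in 1 merged matrix, and the matrix does not say to which sample a barcode belongs. Genotypes are thus compared over a single library each, without replicates, and all intervals below are 95% intervals that cover counting error only. No p-value was computed.

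Sertoli cells are the somatic cells of the seminiferous tubule that enclose and feed germ cells, and their fate is set by the transcription factor SOX9. In the neonatal testis many still divide. They later leave the cell cycle, seal the blood-testis barrier, pass lactate to germ cells and make retinoic acid from retinol, the signal that starts spermatogonial differentiation. Of the 5 genes of the score, *Tnni3* encodes the inhibitory subunit of cardiac troponin, *Tesc* encodes tescalcin, a calcium-binding protein, *Defb36* a beta-defensin, *Tmem114* a membrane protein of the claudin-related family, and *Cidea* a protein of lipid droplets.

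The cells carried the Sertoli label on genes that the rule had not used. Of 15 such markers, 14 had enough counts in each library, at least 50 UMIs over the *Tnni3*-rich and the other cells together, and none of them was 1.5-fold apart between these classes in both libraries. *Sox9* stood at 597 CPM (counts per 1000000 UMIs) in the *Tnni3*-rich cells of control and 598 CPM in those of *Cnot3*-cKO, and 96.9% and 97.1% of these cells held a *Sox9* UMI after each cell was thinned to 8000 UMIs. In interstitial cells, in which collagens and *Dcn* took at least 1% of UMIs, that share was 7.01% and 10.0%. *Wt1*, *Gata4* and *Dmrt1*, which with *Sox9* maintain Sertoli identity, were at 349, 148 and 80.3 CPM in control and 309.9, 148 and 85.1 CPM in *Cnot3*-cKO. *Rhox5*, a gene of androgen-responsive mature Sertoli cells, was near 0, at 0.328 and 0.512 CPM. Of 10 genes of the rete testis and its supporting cells, 5 were absent and the list summed to 80.9 and 76.1 CPM, most of it *Igfbp3*, against 85.5 and 85.2 CPM in the other cells. *Pax8*, *Krt19*, *Krt7*, *Lhx1* and *Cdh16* were at 0 UMIs in the *Tnni3*-rich cells of both libraries, where a count of 0 allows up to 0.328 CPM in control and 0.256 CPM in *Cnot3*-cKO.

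The word non-cycling held for the summed level of proliferation genes, but not for the grouping of every member. The 24 cycle genes outside the rule summed to 607 and 580.5 CPM in the *Tnni3*-rich cells of control and *Cnot3*-cKO. They summed to 610.3 and 564 CPM in the other non-cycling Sertoli cells and to 6223 and 5796 CPM in cycling Sertoli cells. Of the 23 with enough counts, only the mitotic cyclin *Ccnb2* was 1.5-fold higher in *Tnni3*-rich cells in both libraries, at 22.3 against 10.96 CPM in control and 20.3 against 10.0 CPM in *Cnot3*-cKO. Of all members, 15.6% nevertheless grouped in a cluster led by mitotic genes and 6.04% in one led by replication genes, as given with the clusters.

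Both libraries held the class. In control 682 of 2477 non-cycling Sertoli cells were *Tnni3*-rich, 27.5% (Clopper-Pearson interval 25.8% to 29.3%), and in *Cnot3*-cKO 892 of 3817, 23.4% (22.0% to 24.7%). Of all Sertoli cells, where cycling ones entered the denominator only, the shares were 23.6% (22.1% to 25.2%) and 20.5% (19.4% to 21.8%). Of all barcodes past the UMI and mitochondrial limits the order was the opposite, 8.26% (7.68% to 8.88%) in control and 9.72% (9.12% to 10.3%) in *Cnot3*-cKO. These intervals cover the counting of cells within a library and hold no variance between libraries or mice. They therefore cannot show whether the shares differ by genotype, and the direction depended on the denominator. The sort sets in part which cells were loaded, and genotype, library and sort cannot be told apart. No barcode was shared by the members of the libraries, against 3 among all non-cycling Sertoli cells and 18 among all barcodes past the limits. Depth was close in the classes compared. The *Tnni3*-rich cells had median totals of 13058 and 12595 UMIs and the others 12904 and 12551, with median mitochondrial shares of 9.83% and 10.3% in *Tnni3*-rich cells and 10.3% and 10.6% in the others. Scrublet called 0 of 682 and 2 of 892 members doublets.

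**Figure D1:**
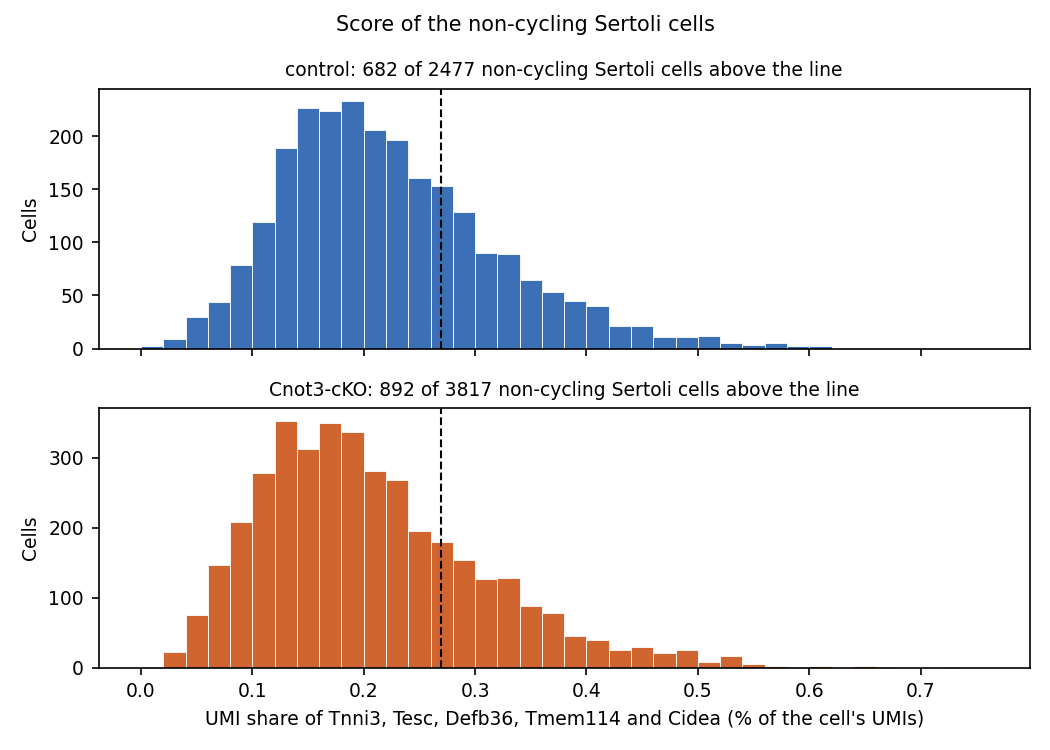
Cells (y axis) by score, the share of a cell's UMIs from *Tnni3*, *Tesc*, *Defb36*, *Tmem114* and *Cidea* (x axis, %), for 2477 control and 3817 *Cnot3*-cKO non-cycling Sertoli cells. The dashed line is the limit of the top 25%, and the score runs through it in 1 hump without a gap.

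The score had no break at the limit. The last 5 cells inside held 0.2698% to 0.2701% of their UMIs from the 5 genes, on 28 to 45 such UMIs, and the first 5 outside held 0.2695% to 0.2698%, on 29 to 62. Members had a median score of 0.331% in control and 0.332% in *Cnot3*-cKO and reached 0.614% and 0.729%, while the others had medians of 0.177% and 0.164%. Cycling Sertoli cells, which the rule left out whatever their score, had medians of 0.202% in control and 0.180% in *Cnot3*-cKO. Their upper quartiles were 0.269% and 0.249% and their highest scores 0.534% and 0.538%, so a high score was not confined to non-cycling cells. None of the 6294 cells lacked all 5 transcripts. Across non-cycling Sertoli cells the variance of the score was 5.53 times the counting variance in control and 6.31 times in *Cnot3*-cKO, and the members are the upper end of a continuous range rather than a separate set.

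The score genes themselves were higher in members because they chose them, and their levels are given as a description. *Tnni3* was at 1564 CPM in the *Tnni3*-rich cells of control and 1685 CPM in those of *Cnot3*-cKO, against 797 and 769.6 CPM in the other cells. *Tesc* was at 588 and 521 CPM against 319 and 267 CPM. *Defb36* was at 557 and 446 CPM against 289 and 222 CPM. These 3 had log2 ratios of 0.88 to 1.13, so the others held less of these transcripts but did not lack them. *Tmem114* was at 461 and 567 CPM against 289.6 and 322 CPM. *Cidea* was apart by much more, at 292 and 289.9 CPM against 65.1 and 49.9 CPM. After thinning, 74.6% and 73.5% of *Tnni3*-rich cells held a *Cidea* UMI, against 33.0% and 25.1% of the other cells and 0.912% and 0.751% of interstitial cells, so a *Cidea* UMI was neither found in every member nor confined to members. Without thinning the shares were 82.0% and 80.7% against 43.7% and 33.2%.

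The promoters of a few genes are printed because the results turn on the genes. The windows are those of RefSeq on GRCm38.p6, from 250 bases before to 50 after a gene's start, and 4 of the 5 score genes, 8 of the 12 genes named below as higher and 7 of the 12 named as lower had an entry. *Cidea*, *Tgm2*, *Rdh10*, *Lgals1*, *Emilin3*, *Fras1*, *Fam155a* and *Foxs1* were among those with none. Each window was searched on both strands for the motif of GATA factors, AGATAA, of SOX factors, ACAATG, of NR5A1, AAGGTCA, and the cAMP response element, TGACGTCA, since factors of these families act in Sertoli cells. Of all 32851 promoters in the table, 11.2% held AGATAA, 12.6% ACAATG, 4.72% AAGGTCA and 1.79% TGACGTCA. *Tnni3* is shown as the gene that names the class, *Fstl3* and *Ltbp1* as genes higher in members whose window held a motif, and *Tspan15* as one that was lower. Capitals mark the motif, where CATTGT is ACAATG read on the other strand, and the *Tnni3* window held none of the 4. A match is a run of letters and not a shown binding site.
Tnni3, chr7:4522479-4522778, minus strand: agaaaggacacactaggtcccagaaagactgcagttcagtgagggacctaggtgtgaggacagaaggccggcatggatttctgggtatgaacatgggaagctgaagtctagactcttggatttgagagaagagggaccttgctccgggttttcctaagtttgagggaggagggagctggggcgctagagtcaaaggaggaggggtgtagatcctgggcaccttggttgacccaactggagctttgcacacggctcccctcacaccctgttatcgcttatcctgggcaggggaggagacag
Fstl3, chr10:79777024-79777323, plus strand: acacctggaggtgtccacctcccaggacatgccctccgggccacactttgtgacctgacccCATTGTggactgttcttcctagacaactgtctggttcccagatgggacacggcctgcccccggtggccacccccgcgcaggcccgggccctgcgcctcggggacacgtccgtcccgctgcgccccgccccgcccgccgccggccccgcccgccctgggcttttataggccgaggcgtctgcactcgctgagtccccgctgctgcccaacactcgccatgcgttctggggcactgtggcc
Ltbp1, chr17:75005279-75005578, plus strand: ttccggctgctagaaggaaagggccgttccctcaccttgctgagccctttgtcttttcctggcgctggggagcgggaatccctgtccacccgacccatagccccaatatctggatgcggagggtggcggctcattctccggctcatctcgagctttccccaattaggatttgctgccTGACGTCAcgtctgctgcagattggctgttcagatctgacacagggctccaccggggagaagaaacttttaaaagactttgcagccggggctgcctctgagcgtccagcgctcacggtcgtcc
Tspan15, chr10:62231169-62231468, minus strand: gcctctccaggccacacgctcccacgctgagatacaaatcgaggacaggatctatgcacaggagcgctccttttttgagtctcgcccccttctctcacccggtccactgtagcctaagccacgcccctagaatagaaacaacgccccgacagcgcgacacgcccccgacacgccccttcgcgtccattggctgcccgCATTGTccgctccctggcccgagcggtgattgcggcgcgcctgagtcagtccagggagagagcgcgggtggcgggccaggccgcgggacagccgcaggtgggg

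*Tnni3* lies on GRCm38 at chr7:4518305-4524229 (minus strand), *Tesc* at chr5:118027743-118061878 (plus), *Defb36* at chr2:152604327-152612729 (plus), *Tmem114* at chr16:8409275-8425136 (minus) and *Fstl3* at chr10:79777272-79782630 (plus), as GENCODE annotates them. The printed *Tnni3* window lies inside the GENCODE span of the gene, so the bases before the outer start of that span were not searched. None of the 4 score gene windows held a motif. ACAATG was in the windows of 3 of 8 genes named as higher (*Fstl3*, and other promoters of *Ltbp1* and *Phactr1*) and of 2 of 7 named as lower (*Tspan15* and *Serpina5*). A gene with several windows counted when any of them held the motif, whereas the 12.6% above is a share of promoters. TGACGTCA was found once, 73 bases before the start of *Ltbp1*, and neither AGATAA nor AAGGTCA was found in these windows.

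The score genes moved together. When each was left out and the cells were ranked by the other 4, the gene left out was still higher in the top 25% than in the rest in both libraries. *Cidea*, left out, was at 251.4 CPM in the top 25% and 80.5 CPM in the rest of control, a log2 ratio of 1.64 (interval 1.56 to 1.73), and at 250.2 and 62.3 CPM in *Cnot3*-cKO, 2.01 (1.93 to 2.08). *Tnni3*, left out, differed by less, with log2 ratios of 0.32 (0.29 to 0.36) and 0.52 (0.50 to 0.55). *Tesc* gave 0.27 and 0.50, *Defb36* 0.45 and 0.59, and *Tmem114* 0.31 and 0.41. The ranking without *Cidea* kept 92.0% of members and the ranking without *Tnni3* kept 71.7%. All these values describe the same cells that gave the 5 genes and are no independent test.

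**Figure D2:**
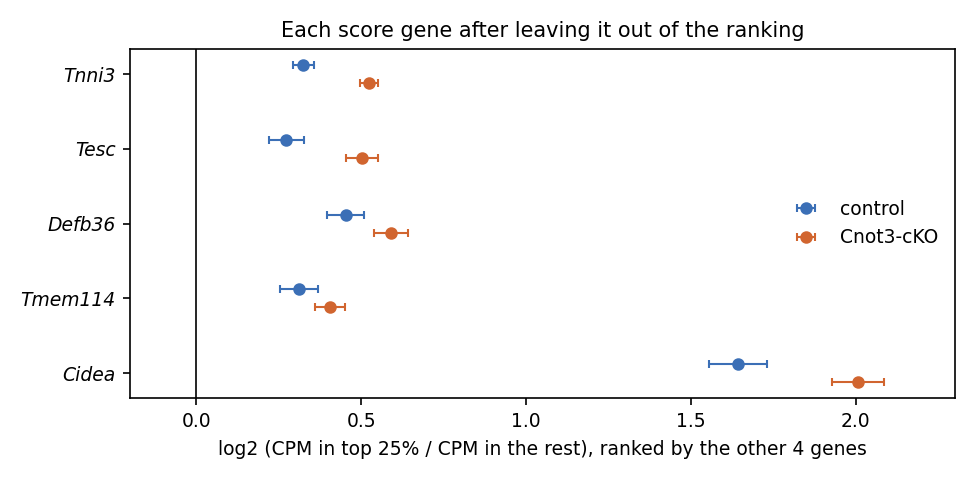
Log2 ratio of CPM in the top 25% over the rest (x axis) for each score gene (y axis) when cells were ranked by the other 4 genes, in control (blue) and *Cnot3*-cKO (orange), with 95% counting intervals. All points lie above 0, from 0.27 to 2.01, with *Cidea* far to the right of the others.

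With the 5 score genes included, 215 of the 11463 genes with enough counts (1.88%) were at least 1.5-fold higher in *Tnni3*-rich cells in both libraries, and 170 (1.48%) at least 1.5-fold lower. Over all genes the median log2 ratio was -0.03 in control and -0.02 in *Cnot3*-cKO. Of 689 genes 1.5-fold apart in control, 88.8% had the same direction in *Cnot3*-cKO. Since the ranking used the counts of these cells, the counts of genes are descriptions. Without the limit on low counts 582 and 471 genes were past 1.5-fold, and with Sertoli genes at 1% of UMIs or more, which left 690 members, 108 and 65.

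*Tgm2*, which encodes a transglutaminase that crosslinks proteins, led the genes that were higher in *Tnni3*-rich cells, ordered by the interval limit nearest 0 in the weaker library. It was at 23.0 CPM in *Tnni3*-rich cells and 4.34 CPM in the others in control, and at 27.6 and 4.20 CPM in *Cnot3*-cKO, with log2 ratios of 2.41 (2.06 to 2.76) and 2.72 (2.44 to 2.998). *Fstl3*, whose secreted product binds activin, was at 71.3 against 16.1 CPM in control and 82.8 against 12.7 CPM in *Cnot3*-cKO. Its log2 ratios were 2.15 (1.97 to 2.33) and 2.70 (2.54 to 2.86). *Lgals1*, which encodes the lectin galectin-1, was the most abundant of the 12, at 1529.5 against 435 CPM in control and 1261 against 273 CPM in *Cnot3*-cKO. *Ltbp1*, a binding protein of latent TGF-beta, was at 27.0 against 6.996 CPM in control and 22.3 against 5.60 CPM in *Cnot3*-cKO. *Tgm2*, *Fstl3*, *Lgals1* and *Ltbp1* were all higher in the *Tnni3*-rich cells of either library than in the other cells of either library.

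The other genes named as higher fell into several kinds. *Uchl1*, a ubiquitin hydrolase best known from neurons and spermatogonia, was at 80.7 against 23.2 CPM in control and 105 against 21.4 CPM in *Cnot3*-cKO. *Hrk*, which encodes a BH3-only protein of the BCL2 family, was at 36.7 against 9.49 CPM and 27.7 against 7.77 CPM, but with Sertoli genes at 1% of UMIs or more its log2 ratio in control was -0.055. *Myoz2*, a sarcomere protein that binds calcineurin, was at 21.0 against 6.01 CPM and 20.8 against 5.34 CPM. *Phactr1*, a regulator of protein phosphatase 1 and actin, had log2 ratios of 2.22 and 1.95, *Cytip*, a cytohesin-binding protein, 1.70 and 1.90, and *Tmem255a*, a membrane protein, 2.37 and 2.59. *Rdh10* is described with the retinoid genes below. *Hrk*, *Cytip* and *Myoz2* were nearly silent in interstitial cells, of which 0.142%, 0.171% and 0.114% in control held a UMI after thinning, against 16.3%, 18.8% and 12.9% of *Tnni3*-rich cells.

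*Lgals1* and *Tgm2* were also present in interstitial cells, at 1479 and 35.5 CPM in control. After thinning, *Rdh10* and *Ltbp1* were found in 11.5% and 9.54% of interstitial cells of control, against 5.07% and 4.68% of the other non-cycling Sertoli cells. For *Fstl3* the shares ran the other way, 6.55% against 9.19%. The 10 stromal markers summed to 26.4 and 26.0 CPM in *Tnni3*-rich cells and to 27.9 and 26.5 CPM in the others, against 3242 and 3131 CPM in interstitial cells, although 1 of the 7 tested, *Fbln1*, was 1.5-fold higher in members. Likewise *Uchl1* was at 1151 CPM in germ cells (at least 10 UMIs of *Ddx4* and *Dazl*) of control, while none of the other 4 germ cell markers tested was 1.5-fold higher in members in both libraries. *Sycp3*, of meiotic chromosomes, was at 2.08 and 1.54 CPM in *Tnni3*-rich cells and 1.64 and 1.43 CPM in the others. *Ddx4* was at 2.298 and 2.65 CPM in *Tnni3*-rich cells and 3.27 and 2.27 CPM in the others, and *Dazl* at 11.1 and 4.87 against 12.9 and 6.65 CPM. The rule itself limited *Ddx4* and *Dazl*.

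Genes lower in *Tnni3*-rich cells differed by less. *Tspan15*, a tetraspanin that guides the protease ADAM10, was at 44.6 CPM in *Tnni3*-rich cells and 103 CPM in the others in control, and at 44.4 and 94.5 CPM in *Cnot3*-cKO, with log2 ratios of -1.21 (-1.36 to -1.06) and -1.09 (-1.22 to -0.96). *Serpina5*, a serine protease inhibitor, was at 33.0 against 59.3 CPM and 43.1 against 110.0 CPM. *Htra1*, a secreted serine protease, was at 55.0 against 92.3 CPM and 47.6 against 82.2 CPM. *Emilin3* and *Fras1*, genes of extracellular matrix proteins, had log2 ratios of -0.97 and -1.19, and -0.97 and -1.02. Among the rarer transcripts, *Slc13a2*, a dicarboxylate transporter, gave -1.23 and -1.47. *Fry*, *Fam155a*, *Stom* and the forkhead gene *Foxs1* lay between -0.82 and -1.14. No gene named as lower was absent from members, and the least abundant of them, *Slc13a2*, was still at 3.39 and 3.16 CPM.

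**Figure D3:**
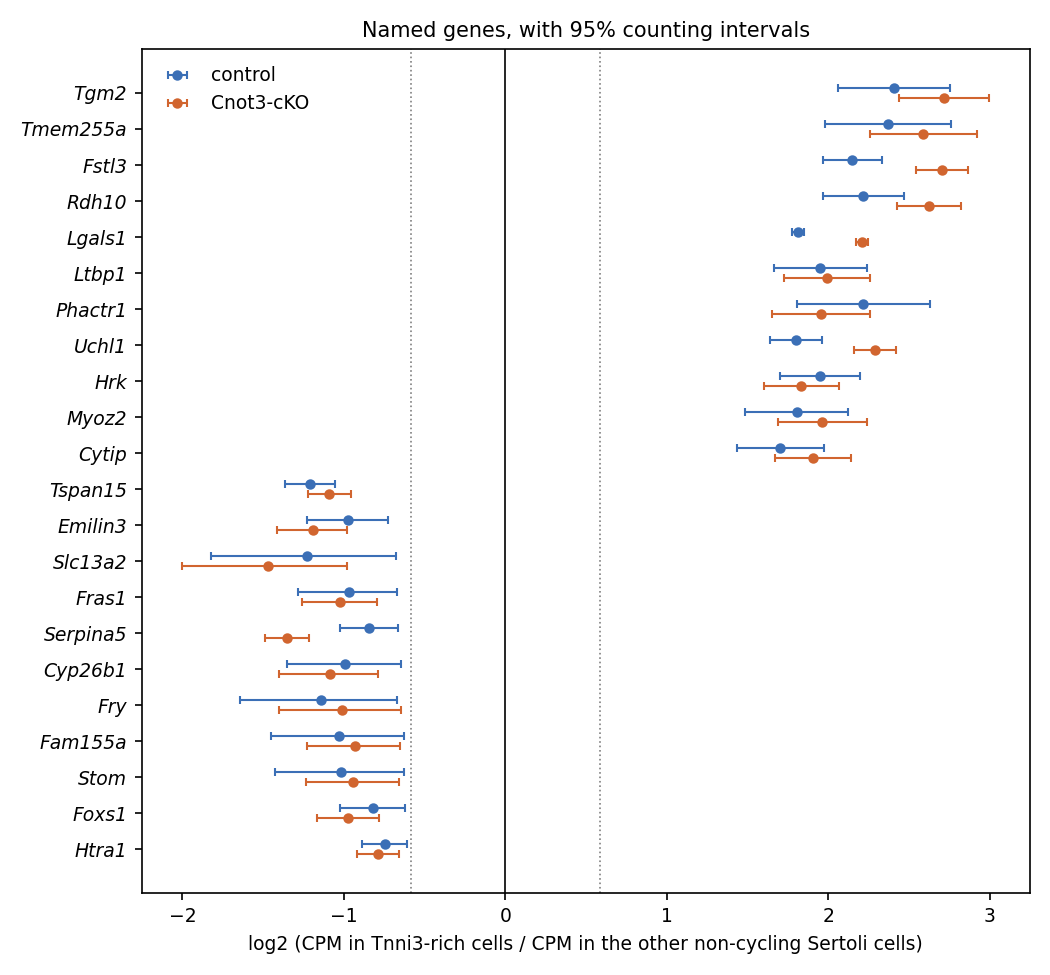
Log2 ratio of CPM in *Tnni3*-rich cells over the other non-cycling Sertoli cells (x axis) for 11 genes named as higher and 11 named as lower (y axis), in control (blue) and *Cnot3*-cKO (orange), with 95% counting intervals and dotted lines at 1.5-fold. The points of both libraries lie on the same side for all 22 genes shown, from -1.47 to 2.72.

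The named genes followed the score in other rankings too. With any 1 score gene left out, all 12 higher genes stayed past 1.5-fold in both libraries, as did all 12 lower genes except *Cyp26b1* when *Tnni3* was left out. Ranked by *Cidea* alone, the top 25% had all 12 higher and all 12 lower genes past 1.5-fold, with median log2 ratios of 2.38 and 2.45 for the higher genes. Ranked by *Tnni3* alone, 9 of the 12 higher and 1 of the 12 lower genes passed, with medians of 0.98 and 1.29. *Tesc* and *Defb36* alone each carried all 12 higher genes, with medians of 1.12 and 1.28, and 0.98 and 1.18, but only 4 and 6 of the 12 lower genes. *Tmem114* alone carried 9 higher and 3 lower genes. *Cidea*, the rarest of the 5, therefore followed the named genes most closely, and *Tnni3*, the gene that names the class and gives the largest part of the score, less so. The named genes had themselves been chosen under the ranking by all 5.

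Retinoid genes moved in both directions. Of 12 tested, 3 were 1.5-fold higher in *Tnni3*-rich cells in both libraries and 1 lower, beside 1.88% and 1.48% of all genes, and the list's median log2 ratios were -0.09 and 0.02. *Rdh10*, the enzyme that oxidises retinol to retinal, was at 39.2 CPM in *Tnni3*-rich cells against 8.43 CPM in the others in control and at 51.7 against 8.39 CPM in *Cnot3*-cKO, with log2 ratios of 2.22 (1.97 to 2.47) and 2.62 (2.43 to 2.82). *Stra6*, the receptor that takes up retinol, was at 58.5 against 32.4 CPM and 54.7 against 23.4 CPM, with log2 ratios of 0.85 and 1.23. *Rdh10* and *Stra6*, which act on retinol, were thus higher in *Tnni3*-rich cells in both libraries.

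Of the genes of later steps, *Cyp26b1* alone was past 1.5-fold in both libraries. *Cyp26b1*, which breaks down retinoic acid, was at 8.86 against 17.6 CPM in control and 8.79 against 18.7 CPM in *Cnot3*-cKO. *Aldh1a1*, which makes retinoic acid from retinal, was abundant in all Sertoli cells and lower in *Tnni3*-rich ones, at 708 against 1004 CPM in control and 641 against 1096 CPM in *Cnot3*-cKO. Its log2 ratios of -0.50 and -0.77 passed 1.5-fold only in *Cnot3*-cKO. *Aldh1a2*, an enzyme of the same step, was at 4.60 against 4.46 CPM in control and 1.71 against 3.68 CPM in *Cnot3*-cKO. The receptors *Rara*, *Rxra* and *Rxrb* had log2 ratios between -0.43 and 0.06. Interstitial cells held far more *Cyp26b1*, 160.5 and 180 CPM, and its level in empty droplets (barcodes of at most 100 UMIs), 53.3 and 78.7 CPM, was above that in either Sertoli class, so the part of free RNA in the *Cyp26b1* values was not tested gene by gene.

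These genes changed stepwise over the ranking. Over 4 equal bins of the score, from the highest to the lowest, *Rdh10* went through 39.2, 13.3, 6.90 and 3.62 CPM in control, and *Aldh1a1* through 708, 914, 1011 and 1123 CPM. *Cyp26b1* rose through 8.86, 15.1, 17.5 and 21.6 CPM. *Fstl3* fell through 71.3, 25.2, 14.2 and 5.67 CPM in control and through 82.8, 27.8, 9.71 and 2.63 CPM in *Cnot3*-cKO. Within the members, *Cidea* fell from 513 CPM in the highest of 5 equal bins to 171 CPM in the lowest in control, and *Uchl1* from 137 to 53.1 CPM, while *Aldh1a1* rose from 523 to 832 CPM. Even the lowest bin of the members held more *Uchl1* than bin 2 of the whole ranking, where it was at 31.1 CPM. *Cidea* is a gene of the score that set the bins, so its fall, to 102 CPM in bin 2, is a description only.

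**Figure D4:**
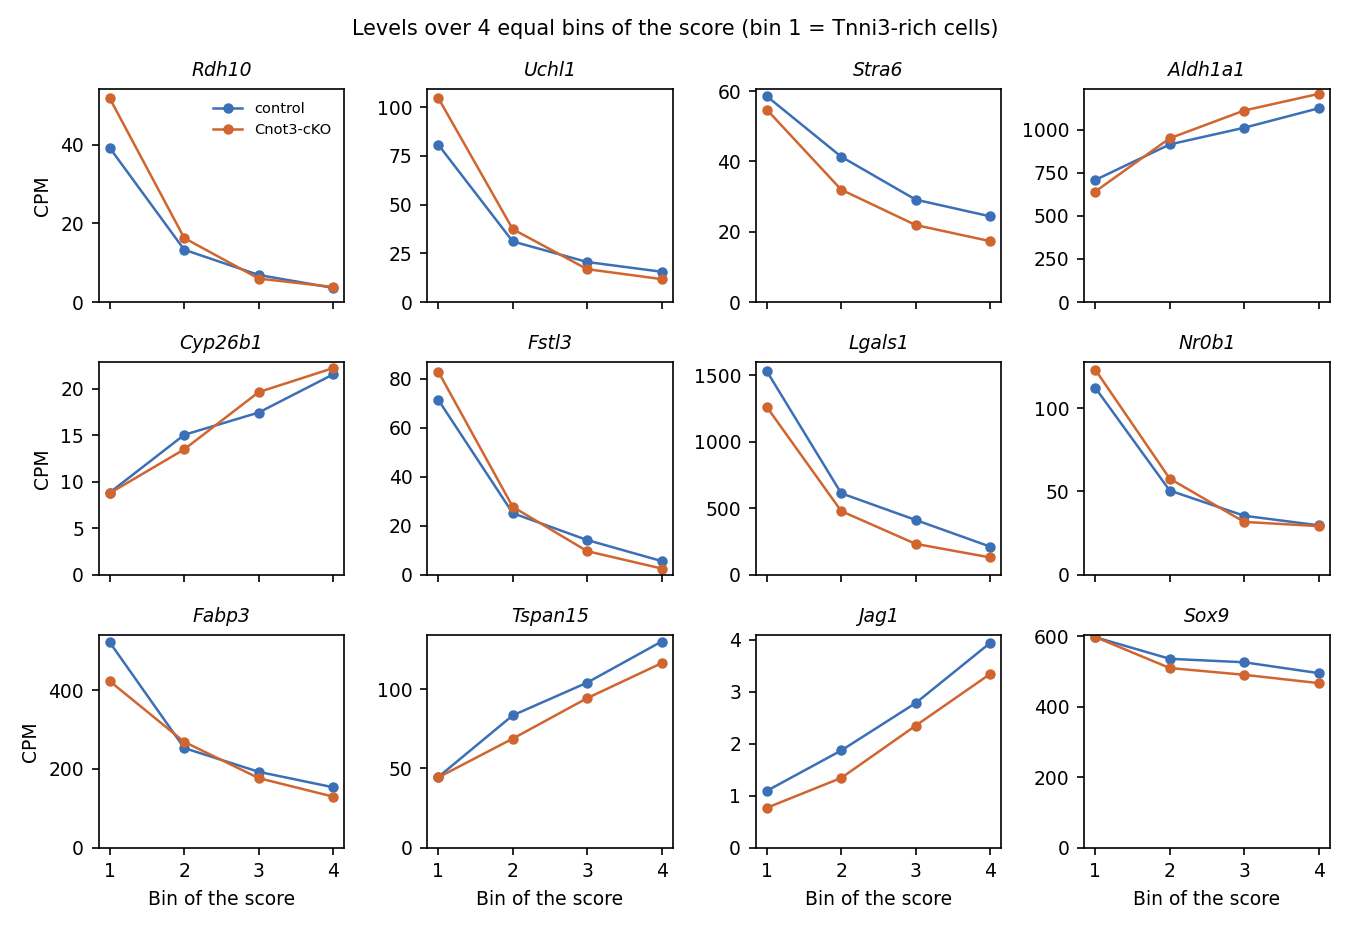
CPM (y axes, from 0) in 4 equal bins of the score (x axes, where bin 1 holds the *Tnni3*-rich cells) for 12 genes in control (blue) and *Cnot3*-cKO (orange). *Rdh10*, *Uchl1*, *Stra6*, *Fstl3*, *Lgals1*, *Nr0b1* and *Fabp3* fall from bin 1 to bin 4, *Aldh1a1*, *Cyp26b1*, *Tspan15* and *Jag1* rise, and *Sox9* falls only from 597 to 495 CPM in control.

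Genes of Sertoli identity and maturation were mostly level, beside 1.88% of all genes higher in *Tnni3*-rich cells and 1.48% lower. Of 11 identity regulators tested, *Nr0b1*, an orphan nuclear receptor that represses NR5A1 targets, was the only one past 1.5-fold, at 112 against 39.6 CPM in control and 123 against 38.9 CPM in *Cnot3*-cKO. Among 14 maturation genes, only *Fabp3*, a fatty acid carrier, was past it, at 521 against 205 CPM and 422 against 188 CPM. Of 11 immature Sertoli genes outside the rule, the imprinted RNA *H19* was higher, at 13.0 against 4.13 CPM and 11.4 against 3.75 CPM. *Amh*, a rule gene of the Sertoli cell set that falls as Sertoli cells mature, had log2 ratios of -0.21 and -0.34. The gap junction gene *Gja1* gave -0.44 and -0.65, with levels of 245 and 313 CPM in *Tnni3*-rich cells. The maturation and the immature list thus each had 1 gene past 1.5-fold, both higher.

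Junction and polarity genes shifted little, where 1.88% of all genes were higher in *Tnni3*-rich cells and 1.48% lower. None of 16 barrier genes was 1.5-fold higher in both libraries. The 1 that was lower, *Cldn5*, is also an endothelial gene and was at 0 and 0.0854 CPM in *Tnni3*-rich cells against 5.07 and 1.62 CPM in the others. Over both libraries, *Cldn5* was at 525 CPM in a cluster of 15 cells led by endothelial and myoid genes, given below. In all other non-cycling Sertoli cells it was at 0.108 CPM. Smaller differences ran upward for the tight junction gene *Cgn*, with log2 ratios of 0.49 and 0.72, the nectin *Nectin2*, 0.49 and 0.70, and N-cadherin, *Cdh2*, 0.55 and 0.53. Of 12 apical genes tested, *Plekhb1* was higher, at 4.70 against 1.19 CPM in control and 4.95 against 0.886 CPM in *Cnot3*-cKO. *Epcam*, an epithelial adhesion gene of the rete testis list, was at 9.30 against 4.62 CPM and 9.39 against 4.54 CPM, and the other tested gene of that list, *Igfbp3*, at 69.6 against 78.6 CPM and 64.0 against 78.0 CPM.

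The niche factors that Sertoli cells offer germ cells were not higher, beside 1.88% of all genes higher and 1.48% lower. Of 11 tested, none rose past 1.5-fold in both libraries and the Notch ligand *Jag1* was lower, at 1.09 against 2.74 CPM in control and 0.768 against 2.40 CPM in *Cnot3*-cKO. The receptor *Notch1* was higher, at 33.9 against 19.9 CPM and 40.4 against 23.3 CPM, the only other one of 8 Notch genes past the limit. *Kitl*, the stem cell factor, had log2 ratios of -0.26 and -0.35 at 333 and 365 CPM in *Tnni3*-rich cells. *Gdnf*, which sustains spermatogonial stem cells, gave -0.18 and -0.73, at 18.7 against 21.2 CPM in control and 19.6 against 32.6 CPM in *Cnot3*-cKO.

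In metabolism, 2 of 19 glycolysis and lactate genes were higher in *Tnni3*-rich cells and none lower, beside 1.88% and 1.48% of all genes. *Pfkl*, the liver-type phosphofructokinase, was at 105 against 63.8 CPM in control and 118 against 59.3 CPM in *Cnot3*-cKO. *Slc16a1*, a transporter that carries lactate across the membrane, was at 21.9 against 11.5 CPM and 30.7 against 13.4 CPM, while *Slc16a3*, another lactate transporter, gave log2 ratios of -0.37 and -0.56. *Cidea* had little company among lipid droplet genes, of which *Fabp3* was the only one of 11 past 1.5-fold. The droplet coat genes *Plin2* and *Plin3* gave log2 ratios of 0.28 and 0.10 in control, and *Plin2* 0.20 in *Cnot3*-cKO, where *Plin3* was level at 116.5 against 116.8 CPM. The list's medians were 0.13 and -0.04, and the close relatives *Cideb* and *Cidec* were at 0.256 CPM or less. None of 20 cholesterol synthesis genes passed, with median log2 ratios of -0.08 and -0.24.

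Most other sarcomere genes tested were not higher along with *Tnni3*. The counts that follow stand beside 1.88% of all genes higher in *Tnni3*-rich cells and 1.48% lower. Only 10 of 25 troponin and sarcomere genes had enough counts, and *Tnnt1* and *Mybpc3* were past 1.5-fold besides *Tnni3*, at 5.91 against 3.23 CPM and 33.7 against 21.0 CPM in control. *Tpm1*, a tropomyosin also made outside muscle, was at 144 against 151 CPM in control and 137 against 158 CPM in *Cnot3*-cKO, and the slow skeletal troponin gene *Tnni1* at 20.1 against 20.2 CPM and 15.4 against 13.7 CPM. *Tnnt2*, the cardiac partner of *Tnni3*, was at 1.42 and 0.598 CPM in *Tnni3*-rich cells, and *Myl7*, *Ttn* and *Pln* were at 0 UMIs in both libraries. Of 8 genes of the tescalcin family and of proton exchange tested besides *Tesc*, only *Car2*, a carbonic anhydrase, was past 1.5-fold, lower at 2.298 against 3.89 CPM and 2.56 against 4.12 CPM. Of cystatin and defensin genes outside the rule, 0 of 6 passed. *Defb19*, beside *Defb36* the other abundant one, was at 1328 against 1318 CPM in control and 1437 against 1390.3 CPM in *Cnot3*-cKO.

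Hormone and stress genes were mostly close between the classes, where 1.88% of all genes were higher in *Tnni3*-rich cells and 1.48% lower. Of 15 genes of the FSH and cAMP response, *Prkar2b*, a regulatory subunit of protein kinase A, and *Star*, the cholesterol carrier of steroid synthesis, were higher, *Prkar2b* at 124 against 82.6 CPM and 151 against 90.8 CPM. The FSH receptor itself, *Fshr*, was at 13.9 against 16.1 CPM and 15.3 against 20.1 CPM. *Star* was at 14.2 against 6.71 CPM and 18.7 against 9.80 CPM, while the Leydig genes *Insl3*, *Lhcgr* and *Hsd3b6* were at 0 UMIs in the members of both libraries. None of 8 steroid receptor and COUP-TF genes, 14 cell cycle inhibitors and D cyclins, 10 heat shock genes, 9 glutathione genes chosen by the study or 11 CCR4-NOT subunits was past 1.5-fold in either direction in both libraries. Of 16 immediate early genes, *Ier3* was higher, at 37.5 against 24.0 CPM and 33.4 against 17.2 CPM.

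Markers of other cell types were low in the members. In the *Tnni3*-rich cells of control and *Cnot3*-cKO, the summed levels were 12.5 and 11.1 CPM for 8 endothelial, 2.41 and 2.82 CPM for 9 macrophage, 4.16 and 2.31 CPM for 8 T cell, 3.06 and 2.48 CPM for 7 erythroid and 15.6 and 20.5 CPM for 8 Leydig markers. The other non-cycling Sertoli cells of *Cnot3*-cKO held more blood-cell RNA, with erythroid markers at 245 CPM and macrophage markers at 33.2 CPM. A few genes tested in these lists differed by class. *Fbln1* was higher, at 6.24 against 3.64 CPM in control and 5.38 against 2.76 CPM in *Cnot3*-cKO. *Esam*, an endothelial gene, was lower at 0.438 against 3.93 CPM and 0.768 against 1.49 CPM. The part of other cells' RNA in the ratios was not tested beyond the subtraction of free RNA, under which 252 genes were higher and 169 lower. The share subtracted was the median of 3 estimates that differed widely. From stromal, germ cell and haemoglobin genes they were 2.43%, 15.9% and 1.41% in members of *Cnot3*-cKO, and 2.48%, 4.94% and 304% in the others. The germ cell list also holds *Uchl1*, a gene named as higher.

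Clustering without the rule genes placed the members in all 6 clusters, with just under 50% of them in 1. Among 6 clusters, 1 of 1165 cells, led by *Fstl3*, *Rdh10*, *Cidea*, *Lgals1* and *Uchl1* (*Cidea* had not been among the clustering genes), was 66.0% members (63.2% to 68.7%) and held 48.9% of all members, 46.0% in control and 51.0% in *Cnot3*-cKO. A cluster of 501 cells was led by *Hist1h2bc*, *Ccnb2* and *Cenpa*, genes of chromatin and mitosis. It was 48.9% members (44.4% to 53.4%), against 25% of all cells clustered, and held 15.6% of all members. A cluster of 730 cells led by the replication genes *E2f1*, *Hells* and *Uhrf1* was 13.0% members and held 6.04%. The clusters of 1288 cells, led by *Apoe*, *Creb5* and macrophage genes such as *C1qa*, and of 2595 cells, led by haemoglobin genes, *Serpina5* and *Tspan15*, were 15.7% and 10.1% members, and of 15 cells led by endothelial and myoid genes 1 was a member. With these last 15 and both cycle-led clusters left out, the cells that remained were ranked anew, and their top 25%, 1262 cells, are not all members of the original set. Against the rest, 217 genes were higher and 158 lower, against 215 and 170.

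All 12 genes named as higher were also higher in members outside the richest cluster than in the other cells outside it. Over both libraries, *Fstl3* was at 122 CPM in the 769 members inside that cluster, 34.4 CPM in the 805 members elsewhere, 82.5 CPM in the 396 other cells inside it and 7.48 CPM in the 4324 other cells elsewhere. *Lgals1* was at 2000 CPM, 768, 1292 and 245 CPM in the same order, and *Hrk* at 37.6, 25.7, 16.8 and 7.64 CPM. Non-members inside the cluster exceeded members elsewhere for 11 of the 12 genes, all except *Hrk*. The cluster was formed from the counts of the same cells, so its genes are no independent result.

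Between the genotypes, *Tnni3*-rich cells were similar. Of the 9849 genes that reached 100 UMIs in the members, 124 (1.26%) were at least 1.5-fold higher in *Cnot3*-cKO and 66 (0.670%) at least 1.5-fold lower, and the median log2 ratio of *Cnot3*-cKO over control was 0.04. With median-of-ratios scaling, which shifted all ratios by 0.04, the counts were 97 and 86. *Cnot3* was at 65.6 CPM in members of control and 75.4 CPM in those of *Cnot3*-cKO, a log2 ratio of 0.20 (0.05 to 0.35), and at 71.2 and 39.5 CPM in germ cells. Where the 3′ tags lie relative to the deleted part of the gene is not given in the sources used here. Among score genes, *Cidea* had a log2 ratio of -0.01, *Tnni3* 0.11, *Tmem114* 0.30, *Tesc* -0.18 and *Defb36* -0.32.

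Genes of antigen presentation and *Sp5* led the genes that were lower in *Cnot3*-cKO. *H2-D1* and *H2-K1*, class I histocompatibility genes whose reads can be split between close copies, were at 88.7 and 83.8 CPM in control and 21.9 and 33.0 CPM in *Cnot3*-cKO. Their log2 ratios were -2.02 (-2.23 to -1.82) and -1.34 (-1.52 to -1.16). *B2m*, their shared light chain, was at 147 and 59.4 CPM, a log2 ratio of -1.30. *Sp5*, a transcription factor induced by Wnt signalling, was at 36.0 and 8.71 CPM, -2.05 (-2.38 to -1.72). The same genes were lower in the other non-cycling Sertoli cells, by -1.85 for *H2-D1*, -1.12 for *H2-K1*, -1.10 for *B2m* and -2.14 for *Sp5*. In interstitial cells the log2 ratios were -0.86 for *H2-D1*, -0.52 for *H2-K1* and -0.30 for *B2m*, and *Sp5* was too rare to compare, on 26 and 17 UMIs with an interval of -1.52 to 0.39. In germ cells *H2-D1* had a log2 ratio of 0.13.

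The further genes named as lower were *Slc4a8*, a bicarbonate transporter, at 30.6 and 14.1 CPM, *Gm47101*, *Clasrp*, *Cadps*, *Tubb2b* and *Defb42*. *Defb42*, a beta-defensin, was at 46.9 and 27.1 CPM. *Clasrp* was lower by about as much everywhere, with log2 ratios of -0.88 in members, -1.02 in interstitial cells, -1.09 in germ cells and -0.92 in empty droplets.

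Among genes higher in *Cnot3*-cKO, the immediate early genes *Fos* and *Fosb* were at 273 and 154 CPM in the members of control and 446 and 266 CPM in those of *Cnot3*-cKO. Their log2 ratios, 0.71 and 0.79, were smaller than in interstitial cells, where they were 2.39 and 2.20, and than in empty droplets, 1.76 and 1.49. Of 15 immediate early genes tested, *Zfp36* and *Klf2* were also 1.5-fold higher, beside 1.26% of all genes, with *Klf2* at 5.36 and 15.3 CPM. *Tagln* and *Acta2*, smooth muscle genes of peritubular myoid cells, were at 5.91 and 10.5 CPM in control and 17.6 and 21.4 CPM in *Cnot3*-cKO, while the 8 myoid markers summed to 69.1 and 106 CPM in members against 2702 and 2576 CPM in interstitial cells. *Slc38a9*, a lysosomal amino acid sensor, was at 59.1 and 125 CPM in members and higher in every class compared, with log2 ratios from 0.90 in germ cells to 1.52 in interstitial cells. The others were *Bora*, *Sfxn1*, *Lima1* and *Tbc1d4*, with log2 ratios from 0.75 to 1.15. *Fos*, *Fosb* and *Slc38a9* were higher in all cell classes and in empty droplets. *Tagln* and *Acta2* were not, with log2 ratios of 0.08 and -0.20 in interstitial cells and -0.09 and -0.20 in empty droplets. In the other non-cycling Sertoli cells *Tagln* had a log2 ratio of 3.25, larger than the 1.57 in members. Library and genotype cannot be told apart for any of these genes.

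**Figure D5:**
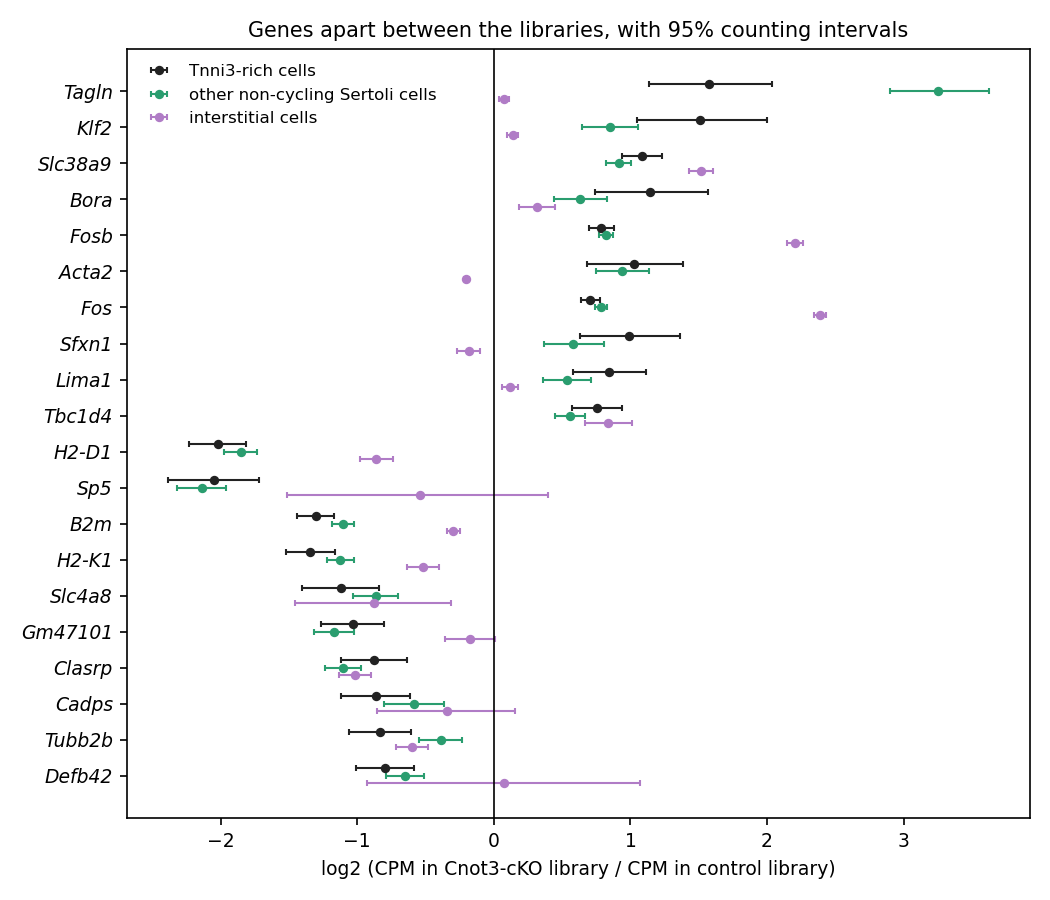
Log2 ratio of CPM in the *Cnot3*-cKO library over the control library (x axis) for the 10 genes named as higher and the 10 named as lower in *Tnni3*-rich cells (y axis), in *Tnni3*-rich cells (black), the other non-cycling Sertoli cells (green) and interstitial cells (purple), with 95% counting intervals. Members and the other Sertoli cells lie on the same side for all 20 genes, and interstitial cells do not for *Acta2*, *Sfxn1* and *Defb42*. In interstitial cells *Defb42* had 19 UMIs in each library and an interval of -0.93 to 1.07, too few to give a direction.

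In the other fixed lists, genotype ratios past 1.5-fold were few, beside 1.26% of all genes higher and 0.670% lower. None was found among 14 Sertoli markers, 11 identity regulators, 13 maturation genes, 14 barrier genes, 18 glycolysis and lactate genes, 20 cholesterol synthesis genes, 10 heat shock genes, 9 glutathione genes or 11 CCR4-NOT subunits. *Id3* was higher at 94.97 and 149.7 CPM, *Fst* at 7.77 and 12.9 CPM and *Dhrs3* at 5.47 and 9.82 CPM. *Fitm2*, *Adcy3* and *Rbl1* were lower, each under 11 CPM. *Dazl* was at 11.1 and 4.87 CPM, while the 12 germ cell markers summed to 1068 and 753 CPM in the empty droplets.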

How the data were processed

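CD9+/THY1+ testis cells had been sequenced with 10x 3′ v3.1 chemistry on NextSeq and NovaSeq instruments, and the deposited matrices hold UMI counts per gene and barcode that the authors made with Cell Ranger 3.0.1 on mm10, with the 2 samples of each genotype merged and no cell calling. The matrices hold 181550221 UMIs in control and 168770743 in *Cnot3*-cKO. Cells were chosen by the rule given above, raw counts were summed per class and library and scaled to CPM, and log2 ratios carry exact conditional 95% intervals. With 1 library per genotype no test was made, and a gene counted as apart when it differed at least 1.5-fold (in both libraries, between classes). Scrublet called 491 of 8254 control and 445 of 9178 *Cnot3*-cKO barcodes doublets. They were kept, and left out in an alternative. Named genes were the 12 higher and 12 lower between classes, and the 10 in each direction between genotypes, ranked by the interval limit nearest 0 (the weaker library, between classes), rule and mitochondrial genes left out between classes, among genes of at least 200 UMIs. Some genes that the rule or the lists name are counted but not reported here by name. The members and the 32 gene lists were chosen with earlier results of these data known. Clusters used 2500 variable genes, without the rule and cycle genes, 30 components, 15 neighbours and resolution 0.5. Free RNA was estimated from barcodes of at most 100 UMIs. Positions are from GENCODE on GRCm38. The calculation of ratios was tested on simulated data. Alternatives changed the filters, the size of the top class, scaling, thinning, score genes and free RNA, and the alternative that leaves out clusters was chosen after seeing the data. Python 3.11.15, numpy 2.4.6, scipy 1.17.1, pandas 2.3.3, scanpy 1.11.5 and matplotlib 3.10.9 were used.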

Additional observations from a re-analysis of the deposited data

Results flagged for a closer look

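Only the named genes, the rule genes and the genes of the fixed lists were screened here, not all genes with enough counts. Among those screened that had enough counts, 3 had a ratio of *Tnni3*-rich over other non-cycling Sertoli cells in opposite directions in the libraries. Both counting intervals were apart from 0, and the difference between the libraries was not tested. *Tagln*, a smooth muscle gene of peritubular myoid cells, had a log2 ratio of 1.04 in control and -0.63 in *Cnot3*-cKO. *Nsdhl*, an enzyme of cholesterol synthesis, gave 0.29 in control and -0.36 in *Cnot3*-cKO. *Hspb1*, a small heat shock gene, gave 0.14 in control and -0.11 in *Cnot3*-cKO.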

How the results depend on the processing

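No paired analysis was possible because each matrix merges the samples of 1 genotype, and for the same reason no replicate could be left out. Of 960 recomputed log2 ratios of the 48 class values under 20 alternatives, 945 stayed past 1.5-fold and 1 reversed: *Hrk* in control was -0.055, against 1.95, with Sertoli genes at 1% of UMIs or more. Of 379 genotype ratios 366 stayed past 1.5-fold and 0 reversed. The share of *Tnni3*-rich cells was 11.02% in control and 9.33% in *Cnot3*-cKO for a top 10%, 54.5% and 47.1% for a top 50%, and 29.7% in control with Sertoli genes at 1% or more. Genes higher in *Tnni3*-rich cells, 215, became 108 with that minimum and 582 without the limit on low counts. Genes lower, 170, became 65 and 471 in the same settings, 102 with cells thinned to 8000 UMIs, 321 for a top 10% and 76 for a top 50%. Between genotypes, 124 higher and 66 lower genes became 1409 and 1101 without the limit on low counts. The 66 became 42 with a mitochondrial limit of 10%, which left 646 members in place of 1574, and with the study's filters, which left 643. The causes of these moves were not tested, apart from the larger number of genes tested without the limit. Precision is limited by counting for rare genes and by 1 library per genotype throughout.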
